A study of Oryza sativa Japonica Group with 14 samples.

Results

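The regions described here are H3K4me3 peaks that were found in the inflorescence meristem of jmj703 rice and in no other H3K4me3 list of the study. They were selected by list overlap: a peak of the jmj703 list was kept where no peak of the other 3 H3K4me3 lists overlapped it by 1 bp or more. This left 453 regions, called the members below, out of 20595 H3K4me3 peaks of jmj703 and 88014 H3K4me3 peaks in all 4 lists. All plants were rice of the DongJin background, grown in the field. Inflorescence meristems (IM, apices of 1 to 2 mm, 10 to 12 leaf stage) came from jmj703 plants, which carry a T-DNA insertion in JMJ703 and represent 1 insertion line, from SDG711 RNAi plants and from wild-type (WT) plants. Vegetative shoot apical meristems (SAM, under 0.5 mm, 6 to 7 leaf stage) came from WT plants. The jmj703 and WT IM were harvested on 21 to 24 June and the SDG711 RNAi IM on 17 to 19 June. H3K4me3 and H3K27me3 were each mapped by ChIP-seq in 1 library per group, and apices were collected by hand on about 400 plants.

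H3K4me3 is a histone methylation found mostly over the start of transcribed genes. JMJ703 is a jumonji-domain demethylase that removes methyl groups from H3K4, and in rice it is also known for keeping certain retrotransposons silent. SDG711 is a Polycomb-group methyltransferase that places H3K27me3, a mark of repressed developmental genes that tends to cover longer stretches than H3K4me3. The regions address where H3K4me3 was listed in plants with a disrupted H3K4 demethylase gene and not in the other plants.

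Because each group had 1 library, no difference was tested and no spread between replicates exists. The 95% Wilson intervals beside shares reflect the number of peaks and nothing else. Coordinates are as deposited, and no source used here names their genome build, so genes and sequences are not given and the state of JMJ703 itself was not checked. "Only" describes the lists: it means that the peak caller listed a region in 1 library and not in the other 3.

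The jmj703-only peaks made up 2.20% of the jmj703 H3K4me3 list (453 of 20595, interval 2.01 to 2.41%). The same rule gave 698 peaks found only in SDG711 RNAi IM (3.05% of that list, interval 2.84 to 3.28%). It gave 226 found only in WT IM (1.02%, interval 0.895 to 1.16%) and 2031 found only in WT SAM (9.08%, interval 8.71 to 9.47%). The jmj703 list thus held more peaks of its own than the WT IM list, from a library of 4869161 tags against 18452560 tags in WT IM. Of the 926 jmj703 peaks that WT IM lacked, the 473 that are not members were listed in SDG711 RNAi IM or WT SAM. Of those, 336 were listed in SDG711 RNAi IM and in neither WT list, and they are used as the nearest comparison below. Without the SDG711 RNAi IM list the rule would have given 789 regions.

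The members were short, shallow peaks compared with the remaining 20142 peaks of the same list. These values come from the list the rule used and are a description. The median length was 828 bp in the members (quartiles 690 and 1023 bp) and 1229 bp in the rest (quartiles 1010 and 1505 bp). Members held a median of 35 tags (quartiles 27 and 49), against 78 in the rest (quartiles 53 and 112). Scaled to library size as RPM (tags per 1e+06 tags of the library) and to length, this was 8.71 RPM per kb in members and 12.8 RPM per kb in the rest, so the members were also thinner per base. The deposited fold enrichment, the peak height over the background of the same library, had a median of 5.76 in members and 7.82 in the rest. The 336 peaks shared with SDG711 RNAi IM lay between these sets, at 908 bp, 39 tags and a fold of 6.45.

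**Figure D1:**
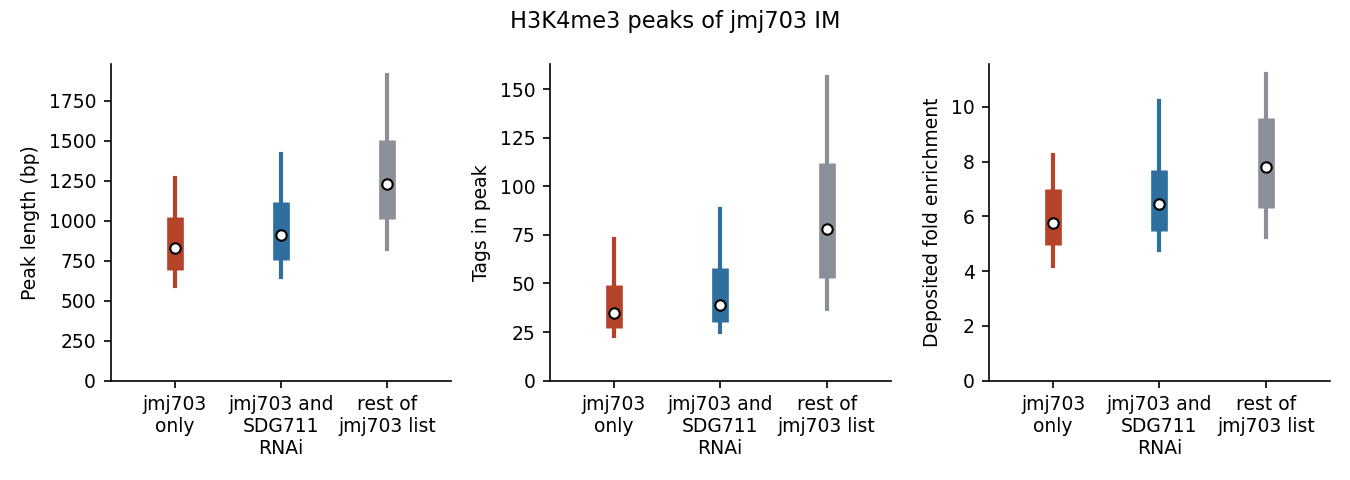
Length in bp, tag count and deposited fold enrichment of H3K4me3 peaks of jmj703 IM, for the 453 jmj703-only peaks, the 336 also listed in SDG711 RNAi IM and in neither WT list, and the remaining 20142 peaks of the list, which include those 336. White points are medians, thick bars the quartiles and thin lines the span that leaves out the lowest and highest 10% of peaks; members have the lowest median in all 3 panels (828 bp, 35 tags, 5.76).

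The ranges overlapped widely. Members ran from 376 to 3888 bp and from 18 to 510 tags. Of the 453, 53 were longer than the median of the rest (11.7%), 32 held more tags (7.06%) and 52 had a higher fold (11.5%). Length under 1000 bp was found in 322 members (71.1%), against 4825 of the rest (24.0%). At the other end, 7 members reached 2 kb (1.55%), against 1680 of the rest (8.34%).

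Most members sat near the caller's threshold. The deposited score is 10 times the negative log10 of a peak's p, so the cutoff of 1e-05 is a score of 50. The median score was 67.1 in members and 189 in the rest, and 157 members scored under 60 (34.7%). When the jmj703 list was cut into 10 classes of equal size by score, the lowest class (50 to 71.2) held 255 members, 12.4% of its 2060 peaks (interval 11.0 to 13.9%). The next class held 123 (5.97%) and the third 43 (2.09%). The 5 classes above a score of 186 held 9 members together, and 1 of those classes held none. By length the order was the same: the shortest class (337 to 811 bp) held 210 members (10.2%, interval 8.96 to 11.6%) and the longest (1901 bp and more) held 9 (0.437%, interval 0.230 to 0.828%). A p of at most 1e-10 was reached by 63 members (13.9%), against 16151 of the rest (80.2%).

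**Figure D2:**
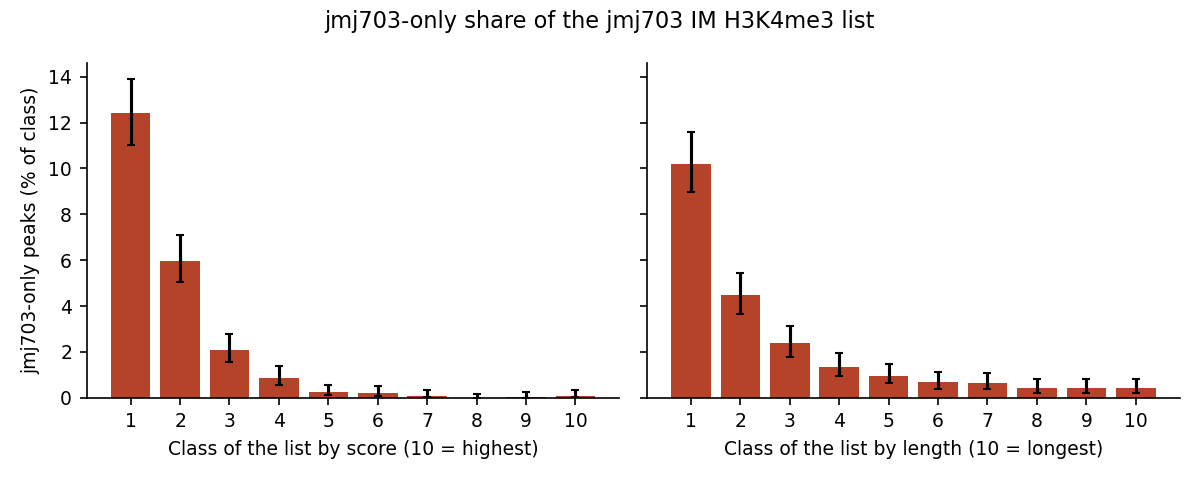
Share of jmj703-only peaks, in percent, in each of 10 equal classes of the 20595 H3K4me3 peaks of jmj703 IM, ranked by score (left) and by length (right). Bars are shares and lines their 95% Wilson intervals; the share is 12.4% in the lowest score class and 10.2% in the shortest class, and under 1% from the fourth score class and the fifth length class upward.

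The 8 members with the highest scores stood well above this level, and 6 of them had no H3K27me3 peak in any library. The first, chr7:3339305-3340676, held 165 tags in 1372 bp at a fold of 8.82 and a score of 568. The nearest H3K4me3 peak of another library lay 1422 bp away, in SDG711 RNAi IM. At the tag rate of jmj703 this region would have held 608 tags in SDG711 RNAi IM, 625 in WT IM and 464 in WT SAM. Taking its background to be the same in each library, 180, 184 and 144 tags would have met the p cutoff there.

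The member with the second-highest score stood out in both marks. On chr11:12315293-12318074 it held 510 tags in 2782 bp at a score of 479, at a fold of 4.72, and its background was 7.33 times the genome mean, the highest of all members. The H3K27me3 list of jmj703 IM had a peak of nearly the same extent, chr11:12315300-12318108, with 841 tags at a fold of 4.35. No other library listed a peak of either mark there. Scaled to library size, the region held 105 RPM of H3K4me3 and 58.7 RPM of H3K27me3 in jmj703 IM. No input library was used, and extra copies of this sequence in the jmj703 plants cannot be told apart from both marks rising there.

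The other 6 of these members were between 741 and 1945 bp long. On chr6:15493569-15495128 there were 118 tags at a fold of 7.04 and a score of 320. The member chr4:11888087-11888996 held 60 tags at a fold of 11.1, 17329 bp from the nearest H3K4me3 peak of another library. The member chr11:2684972-2686916 held 130 tags at 7.93-fold, and chr10:9239991-9240731 held 52 tags at 12.7-fold, the highest fold of any member. These 4 had no H3K27me3 peak in any of the libraries. On chr2:9533942-9534728, with 70 tags and a score of 204, H3K27me3 was listed in jmj703 IM and WT SAM. The last of the 8, chr12:14195495-14196356, held 52 tags at 9.47-fold, 21189 bp from an SDG711 RNAi IM peak and 125708 bp from the nearest WT IM peak.

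High fold and great length did not go together. After the chromosome 10 region, the highest folds were 11.9 at chr8:12194867-12195594 (46 tags), chr11:940266-941283 (42 tags) and chr12:18555152-18555777 (34 tags), and 11.5 at chr6:10569119-10569601 (33 tags). The longest of these 5 was 1018 bp. The longest members had low folds. They were chr1:33512377-33516264 (3888 bp, 176 tags, 3.32-fold), chr7:12223020-12226207 (3188 bp, 177 tags, 3.46-fold) and the chromosome 11 region above. Next came chr12:688727-691076 (2350 bp, 140 tags, 4.43-fold) and chr3:1882025-1884356 (2332 bp, 153 tags, 2.80-fold, the lowest of any member).

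The typical local background of the members was below that of the rest. It was recovered for each peak from its tags and score, and is given relative to an even spread of the library over the genome. No control was used, so the 10 kb background window also holds the peak's own tags. The lower tag counts of members lower their background too, so the difference does not describe the surroundings alone. The median was 1.20 in members and 1.5 in the rest, and 19 members exceeded 3 times the genome mean (4.19%), against 623 of the rest (3.09%). After chromosome 11, the highest were chr10:17316771-17318161 at 4.15 (145 tags) and chr5:19959077-19960599 at 3.85 (141 tags).

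Just inside the overlap rule, the 5 members nearest to another list were chr5:1508727-1509597, chr8:16871974-16872797, chr6:8742598-8744722, chr3:21091796-21093160 and chr1:40928735-40929405, at 7, 20, 28, 33 and 46 bp from a peak of SDG711 RNAi IM or WT IM. Their scores ran from 59.8 to 112. Just outside the rule, chr3:35150014-35151115 shared 30 bases with WT IM and chr11:4811935-4812521 shared 103 with WT SAM. The next were chr1:40452541-40453693 with 345 bases summed over all 3 lists, chr7:16893718-16894359 with 358 and chr3:31410127-31410577 with 451, both in SDG711 RNAi IM. The last of these was shared over its whole length.

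The depth of the other libraries bears on how absence is read. All 3 were deeper than the jmj703 library, by 3.68 times in SDG711 RNAi IM, 3.79 times in WT IM and 2.81 times in WT SAM. At equal enrichment, all 453 members had a probability of at least 0.99 of passing the cutoff in SDG711 RNAi IM and in WT IM, and 443 in WT SAM. The median member would have passed at 63.1% of its jmj703 rate in SDG711 RNAi IM, 62.6% in WT IM and 67.0% in WT SAM. Peaks shared one to one were, however, less enriched in those libraries, with median excess densities of 0.642, 0.682 and 0.477 times that of jmj703 IM. With that lower enrichment, 19.8 members were expected to be missed in SDG711 RNAi IM, 10.2 in WT IM and 190 in WT SAM. Each member's observed tags, which had to pass the cutoff to be listed, stood in for its true rate. This makes the detection probabilities too high and the expected misses too low. The lower enrichment was also taken from peaks listed in both libraries. The calculation therefore cannot show that H3K4me3 was absent from a library. Absence from WT SAM was the least certain by this calculation, and without that list the rule gave 519 regions.

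H3K27me3 was measured in separate libraries and took no part in the rule. It was listed at few members: 371 of 453 overlapped no H3K27me3 peak in any library (81.9%, interval 78.1 to 85.2%), against 79.1% of all jmj703 H3K4me3 peaks. In jmj703 IM, 56 members overlapped H3K27me3 (12.4%, interval 9.64 to 15.7%), against 12.9% of the whole list. In SDG711 RNAi IM it was 36 (7.95%, interval 5.80 to 10.8%), against 5.43%. WT IM had H3K27me3 at 45 members (9.93%, interval 7.51 to 13.0%), against 11.4%. WT SAM had it at 53 (11.7%, interval 9.06 to 15.0%), against 10.4%. In jmj703 IM, WT IM and WT SAM, and for the share with none, the value of the whole list lay inside the interval of the members.

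The exception was SDG711 RNAi IM, where the whole-list share lay just below the interval. With the rest weighted to the score classes of the members, its share in SDG711 RNAi IM was 7.71%, and without weights it was 5.38%. The same weighting gave 11.2% in jmj703 IM, 10.9% in WT IM and 14.8% in WT SAM. Weighted to the length classes instead, the rest had 10.1% in jmj703 IM, 6.04% in SDG711 RNAi IM, 9.29% in WT IM and 11.5% in WT SAM. All 8 values lay inside the intervals of the members. The 336 peaks shared with SDG711 RNAi IM had no H3K27me3 at 82.1% (276 peaks, interval 77.7 to 85.9%).

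**Figure D3:**
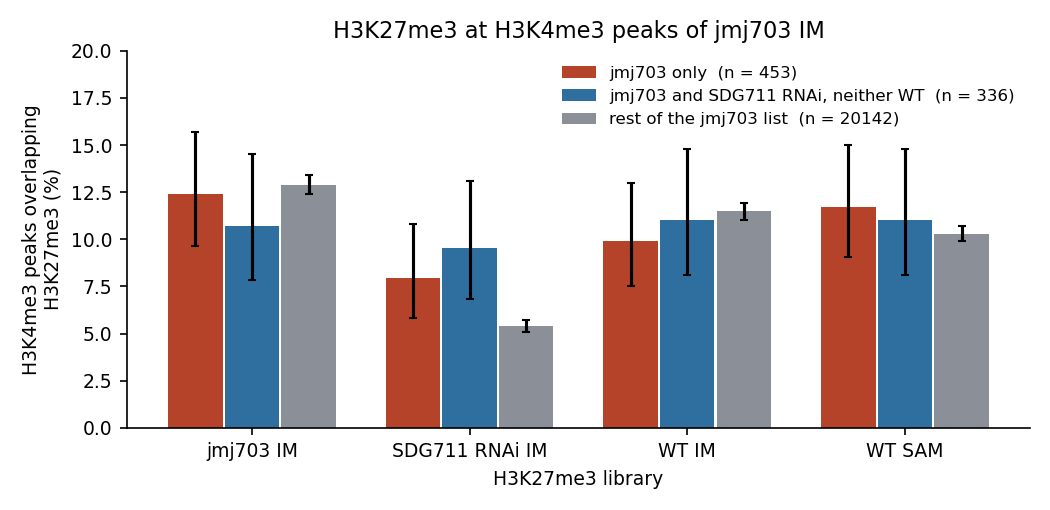
Share of H3K4me3 peaks of jmj703 IM, in percent, that overlapped an H3K27me3 peak of each library, for the 453 jmj703-only peaks, the 336 also listed in SDG711 RNAi IM and in neither WT list, and the remaining 20142 peaks. Lines are 95% Wilson intervals; those of the members reach from 5.80 to 15.7% over the 4 libraries, and only in SDG711 RNAi IM is the interval of the remaining peaks (5.07 to 5.70%) below that of the members.

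The share of jmj703-only peaks without any H3K27me3 was near that of their own list, whereas the shares of peaks found only in another library lay below those of theirs. No H3K27me3 was listed at 81.9% of jmj703-only peaks, against 71.3% of those only in SDG711 RNAi IM (498 of 698, interval 67.9 to 74.6%), 68.6% of those only in WT IM (155 of 226, interval 62.3 to 74.3%) and 26.4% of those only in WT SAM (537 of 2031, interval 24.6 to 28.4%). Over the whole H3K4me3 lists the share with none was 79.1% in jmj703 IM, 76.4% in SDG711 RNAi IM, 76.8% in WT IM and 71.5% in WT SAM. Of jmj703-only peaks, 12.4% overlapped H3K27me3 of jmj703 IM. In the other IM lists the share with H3K27me3 of the same plants was 15.5% of SDG711 RNAi IM-only and 17.3% of WT IM-only peaks. Of WT SAM-only peaks, 70.0% overlapped H3K27me3 of WT SAM (1421 peaks). Over the whole jmj703 list the same-plant share was 12.9%, and it is not given for the other whole lists. The H3K27me3 lists also differed in size, from 8000 peaks in SDG711 RNAi IM to 12551 in WT SAM. The same-plant shares therefore do not set the peaks found only in a library apart from the rest of its list. The members were shorter, at a median of 828 bp against 1128 bp of WT SAM-only peaks, and their H3K4me3 library was shallower. The part of either in the shares of this paragraph was not tested.

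H3K27me3 at members was listed in various combinations of libraries. Of the 82 members with it, 17 had it in all 4 (3.75% of members, against 2.58% of the rest). Another 14 had it in jmj703 IM, WT IM and WT SAM but not SDG711 RNAi IM (3.09%, against 1.86%). WT SAM alone accounted for 12 (2.65%, against 3.90% of the rest), SDG711 RNAi IM alone for 9 (1.99%, against 0.487%) and jmj703 IM alone for 8 (1.77%, against 3.59%). No member had H3K27me3 in WT IM alone, and taking 3 counts as the limit that a count of 0 allows, the share could be up to 0.662%, whereas 495 of the rest did (2.46%). Between jmj703 IM and WT IM, 41 members had H3K27me3 in both (9.05%, against 7.87% of the rest) and 15 in jmj703 and not WT (3.31%, against 5.02%). For all these combinations, the rest was not weighted to the score or length classes of the members. The shares have no intervals and do not set the members apart from peaks of like score or length. The combination of H3K27me3 in WT IM and not in jmj703 IM was found at 4 members (0.883%), against 722 of the rest (3.58%).

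All 4 such sites had H3K27me3 in WT SAM too and none in SDG711 RNAi IM. The highest score of them was at chr10:10700478-10701732, with 41 H3K4me3 tags, a fold of 4.53 and a score of 97.8. It lay in an H3K27me3 peak of 3249 bp and 416 tags in WT IM, whose score of 54.0 was near the cutoff. The next, chr1:4572816-4573533, held 26 H3K4me3 tags, in a WT IM H3K27me3 peak of 2573 bp and 324 tags. The member chr2:1334376-1335121 also held 26, in a WT IM H3K27me3 peak of 1747 bp and 224 tags. The fourth, chr3:15560172-15560792, held 22 in a WT IM H3K27me3 peak of 996 bp and 95 tags. The WT IM H3K27me3 folds at these sites ran between 2.10 and 3.08.

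The 3 highest scores among the 17 members with H3K27me3 in all 4 libraries were on chromosomes 3, 2 and 9. The first was chr3:11030731-11032060, with 51 H3K4me3 tags and a score of 109. The H3K27me3 peak there was 4757 bp long in jmj703 IM and covered the whole member, against 2697 bp in SDG711 RNAi IM, 2175 bp in WT IM and 2158 bp in WT SAM, which covered 54.7, 33.8 and 43.8% of it. On chr2:11351949-11353024, with 42 H3K4me3 tags, the H3K27me3 folds were 5.43 in jmj703 IM, 3.25 in SDG711 RNAi IM, 4.74 in WT IM and 6.02 in WT SAM. On chr9:19274610-19275437, with 36 H3K4me3 tags, they were 3.62, 3.12, 4.39 and 4.61 in the same order. Over all members, the overlapping H3K27me3 peak covered the whole member in 40 of 56 cases in jmj703 IM, 17 of 36 in SDG711 RNAi IM, 30 of 45 in WT IM and 39 of 53 in WT SAM. Most members were short against these H3K27me3 peaks, and a like count is not given for the rest of the list. The median fold of these H3K27me3 peaks was 3.54 in jmj703 IM (3.64 over all its H3K27me3 peaks), 3.44 in SDG711 RNAi IM (3.96), 3.27 in WT IM (3.29) and 3.69 in WT SAM (3.72). Their median length was 2114 bp in jmj703 IM (1730 bp over all its peaks), 2341 bp in SDG711 RNAi IM (1960 bp), 2175 bp in WT IM (1815 bp) and 1535 bp in WT SAM (1536 bp). An H3K27me3 peak that overlapped several members was counted at each. Long peaks are more likely to overlap any region, and values for H3K27me3 peaks at the rest of the list are not given. The greater lengths are therefore not shown to be particular to members.

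Besides the chromosome 11 region, the highest scores among the 8 members with H3K27me3 in jmj703 IM alone were at chr11:20563326-20564841 (75 H3K4me3 tags, 86 H3K27me3 tags) and chr5:19810827-19812013 (79 and 127 tags). Both had backgrounds below 3 times the genome mean, at 1.58 and 2.51. Of the 8, the chromosome 11 region near 12.3 Mb was the only one above it.

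Members lay at all distances from the H3K4me3 peaks of other plants. The median distance to the nearest peak of another library was 2950 bp (quartiles 1514 and 9099 bp). It was at most 1000 bp for 76 members (16.8%) and at most 5 kb for 279 (61.6%), whereas 46 lay more than 20 kb away (10.2%). Within the jmj703 list, the next peak was a median of 5358 bp away from members and 5736 bp from the rest. Members close to other peaks were longer and held more tags than isolated ones, at a lower fold. The 146 within 2 kb had a median length of 1003 bp, 48 tags, a fold of 5.17 and a background of 1.71 times the genome mean. The 105 over 10 kb away had 717 bp, 28 tags, a fold of 6.18 and a background at the genome mean (1.00). Scores were alike, at 67.6 and 65.7. At a like score a higher background requires more tags and gives a lower fold, so these contrasts are not separate from that in background. H3K27me3 in any library was listed at 23 of the 146 (15.8%, interval 10.7 to 22.5%) and at 16 of the 105 (15.2%, interval 9.60 to 23.3%). It was listed at 43 of the 202 members in between (21.3%, interval 16.2 to 27.4%) and at 21.0% of the rest of the list, so the 3 distance classes overlapped in their intervals.

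**Figure D4:**
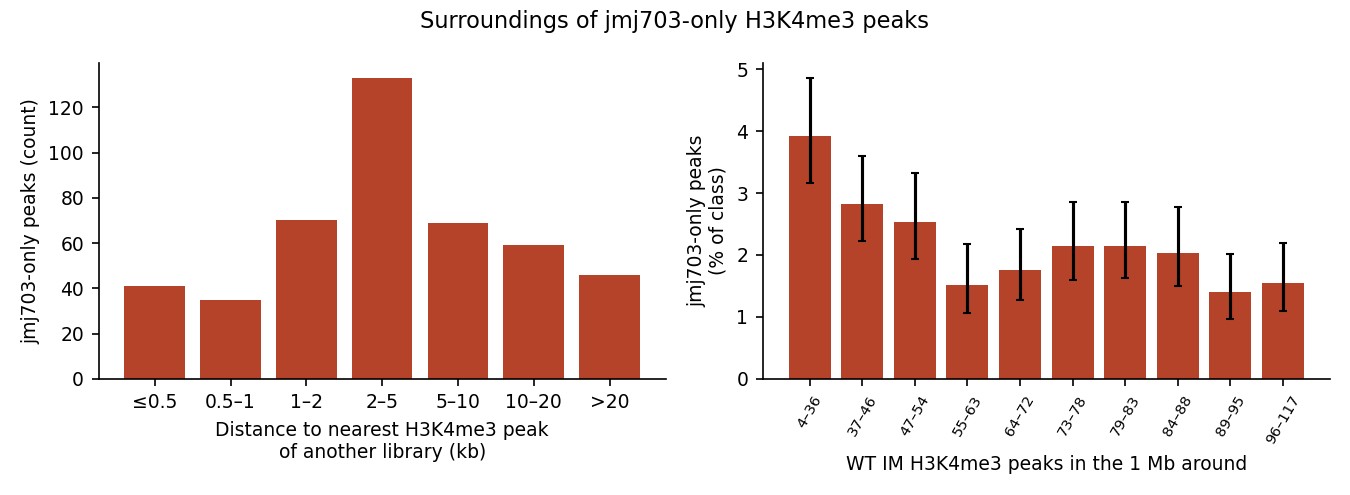
Left, number of jmj703-only peaks by distance, in kb, to the nearest H3K4me3 peak of another library; 133 of the 453 lie between 2 and 5 kb. Right, jmj703-only share, in percent with 95% Wilson intervals, of jmj703 IM H3K4me3 peaks in 10 classes by the number of WT IM H3K4me3 peaks in the 1 Mb around them; the share is 3.93% in the sparsest class and 1.55% in the densest.

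Members took a higher share of jmj703 peaks where WT IM H3K4me3 peaks were sparse. This grouping by surroundings was added after the data were seen. With 4 to 36 WT IM H3K4me3 peaks in the 1 Mb around, 81 of 2060 jmj703 peaks were members (3.93%, interval 3.17 to 4.86%). With 96 to 117 such peaks, 31 of 2004 were (1.55%, interval 1.09 to 2.19%). Between these ends the share did not fall evenly: it was 1.52% with 55 to 63 WT IM peaks and 2.15% with 79 to 83. Among peaks with p above 1e-10 alone, the share was 13.1% in the sparsest class (61 of 467, interval 10.3 to 16.4%) and 6.99% in the densest (29 of 415, interval 4.91 to 9.86%). The WT IM list also took part in the rule. Where it held fewer peaks, fewer could overlap a jmj703 peak, so this contrast is not independent of the rule. Counting the other jmj703 peaks in its place gave 3.37% for the sparsest class, against 2.20% of the whole list. The densest class is not given for that count. Sparse surroundings were not particular to the members. The 336 peaks shared with SDG711 RNAi IM had a median of 61 WT IM peaks in the 1 Mb around, against 63 for members and 72 for the rest.

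Some members stood close together. Within 10 kb of another member lay 44 of the 453 (9.71%), in 19 pairs and 2 groups of 3. A like count is not given for other sets of peaks. The share therefore does not show that members stood closer together than other peaks would. The 44 had a median of 39.5 WT IM peaks in the 1 Mb around, against 67 for the 409 others. The group on chromosome 8 was regular. It consisted of chr8:17278912-17279520, chr8:17285190-17285842 and chr8:17291414-17292119, whose starts were 6278 and 6224 bp apart. They held 34, 35 and 31 tags at folds of 6.15, 6.08 and 6.13, with no H3K27me3, and the nearest H3K4me3 peak of another library was at least 52333 bp away. The group on chromosome 7 was made of chr7:20665324-20666022, chr7:20672713-20673521 and chr7:20681223-20682475, with starts 7389 and 8510 bp apart and 25, 30 and 65 tags.

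Among the pairs, some were closely matched and others were not. On chromosome 8, chr8:13786637-13787363 and chr8:13793637-13794365 were 727 and 729 bp long, started exactly 7000 bp apart and held 32 and 35 tags. On chromosome 12, chr12:18548280-18548904 and chr12:18555152-18555777 were 625 and 626 bp long, 6872 bp apart, with 28 and 34 tags. The members chr8:12194867-12195594 and chr8:12200829-12201401, 5962 bp apart, differed more, with 728 and 573 bp and 46 and 39 tags. The chromosome 10 region of highest fold had its partner at chr10:9248161-9249211, 8170 bp on, which was longer (1051 bp, against 741 bp) and had a lower fold (8.43, against 12.7). Of 22 pairs of members that were next to each other in the jmj703 list and within 10 kb, 17 had starts 5.5 to 9 kb apart (77.3%), with a median of 7180 bp. Among 10324 such pairs in which neither was a member, 4502 did (43.6%), with a median of 6566 bp. Such pairs of a member and a non-member numbered 395, of which 115 did (29.1%), with a median of 4764 bp. The range of 5.5 to 9 kb was set after the spacings were seen, which can by itself raise the share in pairs of members. The shares are therefore a description and do not show that this spacing is particular to pairs of members. Whether the paired members are copies of each other was not tested.

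Members occurred on all 12 chromosomes, from 22 on chromosome 9 to 56 on chromosome 1. As a share of the jmj703 peaks of each chromosome, they made up 3.16% on chromosome 12 (36 of 1139, interval 2.29 to 4.34%), 2.86% on chromosome 11 (33 of 1155, interval 2.04 to 3.99%) and 2.78% on chromosome 6 (47 of 1688, interval 2.10 to 3.68%). The lowest shares were 1.73% on chromosome 2 (41 of 2364, interval 1.28 to 2.34%) and 1.77% on chromosome 3 (47 of 2658, interval 1.33 to 2.34%). The intervals of chromosome 12 and chromosome 2 overlapped slightly, and neighbours in this order did not differ beyond their intervals. Per length the spread was from 0.959 members per Mb on chromosome 9 to 1.51 on chromosome 6. Over the 12 chromosomes the number of members went with the length spanned by peaks (Pearson r 0.890, Spearman rho 0.861) and with the number of jmj703 peaks (r 0.843, rho 0.798), which themselves share chromosome size. Chromosome 11, with 39.8 jmj703 peaks per Mb, had the fewest per Mb, and chromosome 3, with 73.0, the most.

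**Figure D5:**
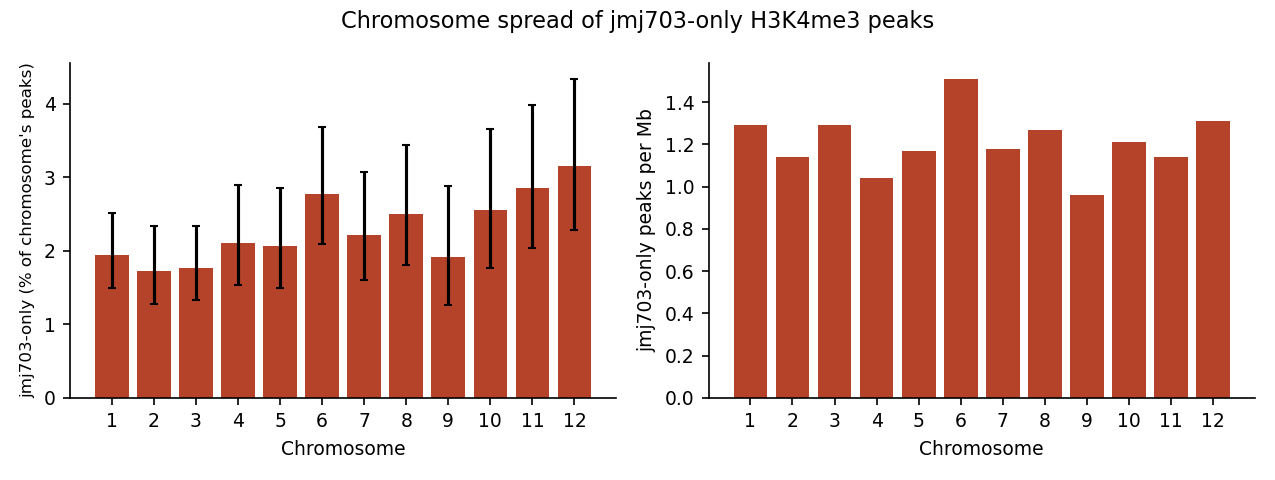
Left, jmj703-only peaks as a percentage of the jmj703 IM H3K4me3 peaks of each rice chromosome, with 95% Wilson intervals; right, jmj703-only peaks per Mb of the length spanned by peaks. Shares run from 1.73% on chromosome 2 to 3.16% on chromosome 12, and densities from 0.959 per Mb on chromosome 9 to 1.51 on chromosome 6.

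The best-scoring member of each chromosome gives the reach of this set. Besides those on chromosomes 2, 4, 6, 7, 8, 10, 11 and 12 already given, they were chr1:24124477-24125678 (80 tags, 6.27-fold, score 135), chr3:29190672-29192016 (89 tags, 5.67-fold, score 164), chr5:22867159-22868061 (57 tags, 7.51-fold, score 158) and chr9:1253534-1254702 (66 tags, 8.79-fold, score 147). The chromosome 3 region lay in H3K27me3 of jmj703 IM, WT IM and WT SAM, with H3K27me3 folds of 4.19, 5.34 and 4.55, and had none in SDG711 RNAi IM. The other 3 had no H3K27me3 in any library. Members with H3K27me3 in any library were found on every chromosome. Their share was lowest on chromosome 12 (3 of 36, 8.33%, against 20% of all jmj703 peaks there) and highest on chromosome 6 (12 of 47, 25.5%, against 20.3%). These shares rest on few members per chromosome and were given no intervals, so they do not show that the chromosomes differ.

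The share of members also varied along the chromosomes. With each chromosome cut into 10 equal parts, the fifth part held 42 members among 1358 jmj703 peaks (3.09%, interval 2.30 to 4.15%) and the last part 57 among 2935 (1.94%, interval 1.5 to 2.51%). The fourth part had 2.92% and the sixth 1.69% (27 of 1597, interval 1.16 to 2.45%), so neighbouring middle parts stood at opposite ends of the order. The intervals of the fifth, sixth and last parts overlapped, so these shares do not set the parts apart.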

How the data were processed

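The data were 8 deposited lists of ChIP-seq peaks. The 6 RNA samples were not analysed here. Peaks were called by the authors library by library with MACS 1.4.0rc2, without a control, per the file headers, at a p cutoff of 1e-05 and with a 10 kb background window. Totals ran from 4869161 to 22887617 tags. The deposited tag count of a peak is not normalized. The deposited score is −10 times the log10 of p, and the deposited fold enrichment is a ratio of peak height to local background. Lengths are also as the authors deposited them.

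Starts below 1 were set to 1. Overlap meant 1 bp or more. Background was found by solving the Poisson p for its mean (scipy 1.17.1). Overlap and background code were tested on simulated data. Alternatives changed the overlap, the p cutoff, the lists compared and the enrichment. The regions, the comparisons and the rules for naming regions (highest score, length or fold, H3K27me3 state, chromosome, nearness and clusters) were chosen with earlier results of these data known. Regions of highest background, the pairs and the subgroups by distance were added after the values were seen.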

Additional observations from a re-analysis of the deposited data

How the results depend on the processing

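The number of jmj703-only peaks depended on the cutoffs more than on the overlap. It was 63 with p at most 1e-10 in the jmj703 list, 197 with that cutoff in all 4 lists and 789 without the SDG711 RNAi IM list. Under the other 5 alternatives it lay within 1.5 times the main count. With p at most 1e-10 in the H3K27me3 lists, the share of members with H3K27me3 was 8.39% in jmj703 IM, 3.75% in SDG711 RNAi IM, 6.84% in WT IM and 6.40% in WT SAM, and 87.4% had none. Among members with p at most 1e-10 it was 4.76% in SDG711 RNAi IM, 4.76% in WT IM and 7.94% in WT SAM, and 85.7% had none. These members had medians of 932 bp, 52.0 tags and a fold of 7.41, and made up 1.14% of such peaks on chromosome 12. With the enrichment of each library, 187 members passed a detection probability of 0.99 in SDG711 RNAi IM, 229 in WT IM and 17 in WT SAM. The cause of these shifts was not tested beyond what each setting changes by itself. With WT IM peaks counted in 0.5 or 2 Mb, alternatives chosen after seeing the data, the sparsest class held 4.58 and 3.71% members. The remaining shares stayed within the Wilson interval of their main value. Medians without members near other lists stayed within the 95% order-statistic interval of the main median (804 to 857 bp, 34 to 37 tags, fold 5.73 to 5.95). Depth in jmj703 IM limits which weak H3K4me3 peaks could be listed at all. No paired analysis was possible because each ChIP group had 1 library and no test was run.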
